A study of Mus musculus with 8 samples.

Results

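The 10 genes described here encode tumour necrosis factor (Tnf), the lymphotoxins Lta and Ltb, the receptors Tnfrsf1a, Tnfrsf1b and Ltbr, the receptor adaptors Traf1 and Traf2, and the receptor-interacting kinases Ripk1 and Ripk3. They were chosen by symbol, and all 10 are among the 24391 gene symbols of the deposited count table. The samples were atherosclerotic lesions of the brachiocephalic artery, the first branch of the aortic arch, taken as whole tissue from C57BL/6 mice fed a Western diet for 18 weeks. Injected antibody against interleukin-1β (IL-1β) was compared with injected control immunoglobulin G (IgG), with 4 animals in each group and 1 library per animal. Per the study's design text, animals of both groups came from a smooth muscle lineage tracing line and were wild type. No disease-sensitising allele, Cre driver, age, antibody dose or injection schedule is given in the labels, so the model is described only as far as that. The comparison asks how these transcripts stand in advanced lesions when IL-1β is neutralised.

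TNF is made largely by activated macrophages and T cells as a membrane trimer that the protease ADAM17 sheds. Its receptor TNFR1, encoded by Tnfrsf1a and found on most cells, carries a death domain that gathers TRADD, RIPK1, TRAF2 and ubiquitin ligases and activates NF-κB. When ubiquitination or caspase-8 activity fails, the same receptor can signal cell death, including necroptosis through RIPK1, RIPK3 and MLKL. TNFR2, encoded by Tnfrsf1b, has no death domain, is found mainly on leukocytes and endothelium, and binds TRAF2 and TRAF1. Lymphotoxin-α binds the same receptors as TNF, whereas its membrane complex with lymphotoxin-β binds LTBR and drives the non-canonical NF-κB route that organises lymphoid tissue. IL-1β and TNF converge on NF-κB and share many target genes, and lesional macrophages are a known source of TNF in atherosclerosis.

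Counts assigned to genes totalled 20137336 to 27100415 in antibody libraries and 21902802 to 29453014 in IgG libraries, which is 27.9% to 34.1% and 24.4% to 34.9% of alignments. IgG animal 2 had the lowest share assigned (24.4%) and the highest share placed at several sites (48%, against 35.2% to 43% in the other libraries). Levels are given as CPM, a gene's counts relative to the total of its library, scaled by TMM (trimmed mean of M values), and differences as log2 fold changes of antibody over IgG. Against the labelled mixture of smooth muscle, epithelial and macrophage cells, the summed level of 9 macrophage markers was 4744 to 7094 CPM in antibody lesions and 3982 to 10863 CPM in IgG lesions. The 6 smooth muscle markers summed to 1434 to 3929 CPM in antibody lesions and 2210 to 2927 CPM in IgG lesions. The 6 epithelial markers reached only 8.97 to 14.6 CPM in antibody lesions and 11.6 to 40.9 CPM in IgG lesions, with Epcam and Krt5 at 0 in some libraries. The 40.9 CPM was in IgG animal 1, and the other IgG lesions had 11.6 to 12.3 CPM. The 6 endothelial markers, a cell type the labels do not name, summed to 1395 to 1614 CPM in antibody lesions and 1388 to 1683 CPM in IgG lesions. Thymocyte markers, which mark developing T cells of the thymus, summed to 71.1 CPM in antibody animal 2 and 92 CPM in IgG animal 1, against 4.58 to 19.2 CPM in the other libraries. In whole tissue, fewer cells of a type and less RNA per cell cannot be told apart.

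Each of the 9 genes that could be fitted had a lower fitted mean in the antibody group, and none of the differences passed the test. In the edgeR quasi-likelihood fit, adjusted by Benjamini-Hochberg over 15980 genes, 0 of 9 passed an adjusted p of 0.05 (0.9997 for each), as did 0% of all genes. At an unadjusted p under 0.05 there were 2, Ltb and Traf1, both lower, where 3.19% of all genes (509) were at that level and 2.06% were so and lower. DESeq2 called 8 genes of the table (0.0501%) and limma-voom 0%, none of them among the 9, and each tool put Ltb and Traf1 at an unadjusted p under 0.05, with 3.54% and 2.92% of all genes at that level. A log2 fold change below 0 was found in 52.3% of all genes, whose median was -0.0096. Lta had too few counts to pass the filter and is described by its counts. For 7 of the 9 genes the 95% interval of the fold change lay within 2-fold in either direction, as it did for 81% of all genes, and the exceptions were Tnf and Ltb.

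**Figure D1:**
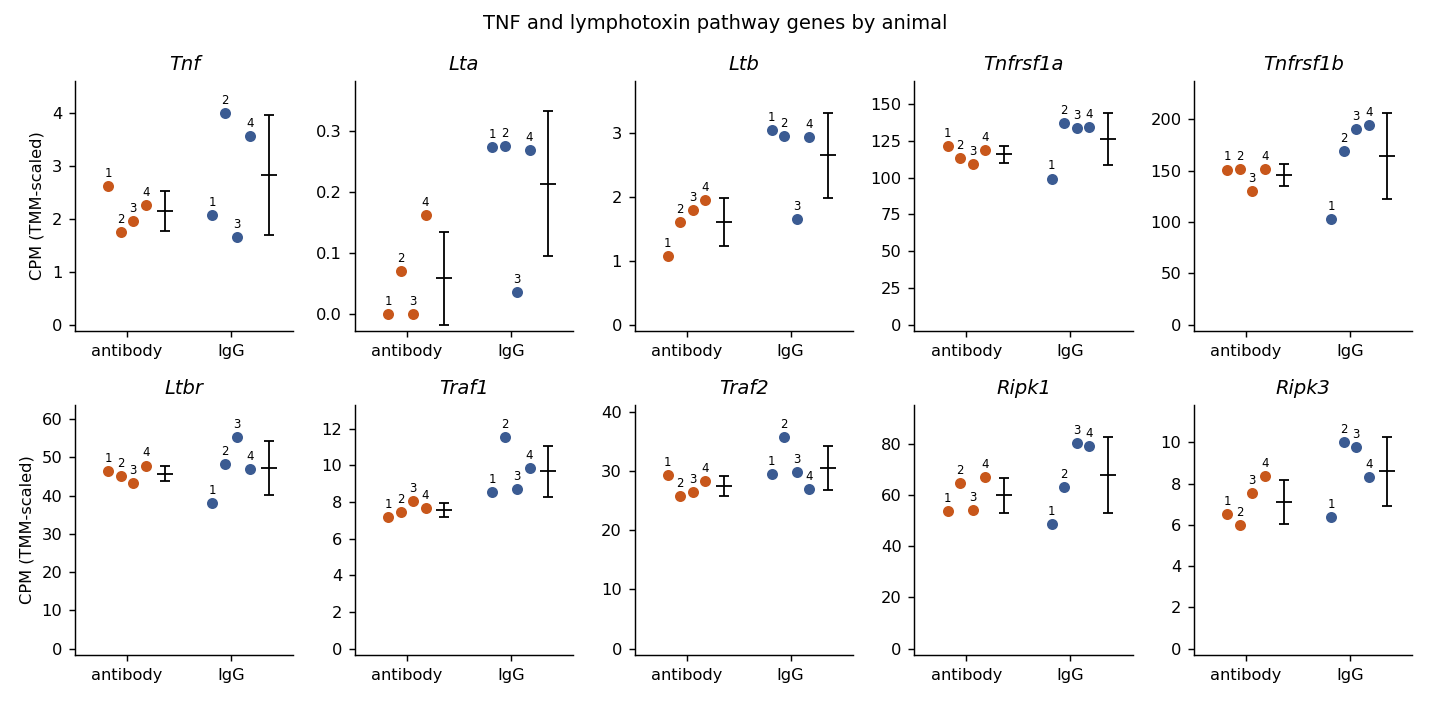
Level of each of the 10 genes in every animal, in CPM on TMM-scaled libraries, with antibody animals in orange to the left of IgG animals in blue and the animal number above each point. Bars are the mean and SD of 4 animals; the bar of Lta in the antibody group extends below 0. Only for Traf1 do all 4 antibody values lie below all 4 IgG values.

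Tnf, Ltb and Lta lie side by side in the major histocompatibility region of chromosome 17. In the mm9 build used by the files, Ltb spans 35331452 to 35333250 on the plus strand, Tnf 35336312 to 35338952 on the minus strand and Lta 35340110 to 35342296 on the minus strand. These spans run from the first to the last exon base of each gene, and no exon of any of the 10 genes overlaps an exon of another gene in the counting annotation. Upstream sequences of these ligand genes are shown because all 3 of their products start the signalling described here, and that of Traf1 because it was the gene whose groups separated. They are the 250 bases before the start site from RefSeq (GRCm38.p6), on the strand of the gene, with capitals marking a match on either strand to the classical kappaB decamer of the immunoglobulin light chain enhancer, or to the TATA motif TATAAA. Ltb is at chr17:35194257-35194506 (plus), Tnf at chr17:35202008-35202257 (minus), Lta at chr17:35205352-35205601 (minus) and Traf1 at chr2:34961773-34962022 (minus).
Ltb: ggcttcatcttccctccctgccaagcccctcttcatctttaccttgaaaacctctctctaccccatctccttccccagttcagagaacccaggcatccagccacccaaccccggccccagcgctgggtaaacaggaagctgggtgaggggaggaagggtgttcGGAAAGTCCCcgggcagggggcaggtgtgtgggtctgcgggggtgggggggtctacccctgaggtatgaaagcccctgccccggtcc
Tnf: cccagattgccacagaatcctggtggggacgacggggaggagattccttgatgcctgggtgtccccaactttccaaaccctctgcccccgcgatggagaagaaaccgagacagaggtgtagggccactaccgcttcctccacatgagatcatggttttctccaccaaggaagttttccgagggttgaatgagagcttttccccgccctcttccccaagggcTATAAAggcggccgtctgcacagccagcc
Lta: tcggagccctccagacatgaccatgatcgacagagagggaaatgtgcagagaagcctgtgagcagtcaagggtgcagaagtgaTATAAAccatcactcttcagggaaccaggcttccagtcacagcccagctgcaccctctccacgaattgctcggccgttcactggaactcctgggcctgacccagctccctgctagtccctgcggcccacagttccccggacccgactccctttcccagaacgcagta
Traf1: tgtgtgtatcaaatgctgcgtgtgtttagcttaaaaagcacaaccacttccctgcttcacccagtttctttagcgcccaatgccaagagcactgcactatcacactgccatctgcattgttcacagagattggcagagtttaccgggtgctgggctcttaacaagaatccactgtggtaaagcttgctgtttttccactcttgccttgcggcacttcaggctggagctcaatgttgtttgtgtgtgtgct

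The decamer was found in the Ltb window alone among the 11 windows of the 10 genes (Ripk1 has 2 start sites), at bases -87 to -78, where the capitals show it as its reverse complement. It occurs in 46 of 32851 RefSeq windows of that length, or 0.14%. TATAAA stands at -29 to -24 in Tnf and at -167 to -162 in Lta, and in 12.4% of all windows. The AP-1 motif TGANTCA, searched on both strands, was in none of the 11 windows and in 6.75% of all windows. A match is a string of letters, and other spellings of these sites were not searched.

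Tnf, the founding ligand of the family, was detected in every lesion at a low level. It had 2.64, 1.75, 1.97 and 2.27 CPM in antibody animals 1 to 4, from 45 to 56 counts each, and 2.09, 4.01, 1.66 and 3.58 CPM in IgG animals 1 to 4, from 46 to 106 counts. IgG animals 2 and 4 stood above every antibody animal, IgG animal 1 lay within the antibody range and IgG animal 3 just below it, so the groups overlapped. The means were 2.16 ± 0.383 CPM with the antibody and 2.83 ± 1.14 CPM with IgG (SD, n = 4 each). The log2 fold change was -0.39 ± 0.31 (SE, 95% interval -1.09 to 0.30), and the edgeR unadjusted p was 0.236. That interval includes 0. Without IgG animal 2, the library with the lowest share assigned and the highest IgG value for Tnf, Traf1, Traf2 and Ripk3, the log2 fold change was -0.18, and without IgG animal 4 it was -0.26.

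Ltb, which anchors lymphotoxin-α at the cell surface and is made mostly by lymphocytes, had the largest difference of the 9. It had 1.07, 1.61, 1.79 and 1.94 CPM in antibody animals 1 to 4 (22, 46, 41 and 48 counts). In IgG animals 1 to 4 it had 3.04, 2.95, 1.66 and 2.94 CPM (89, 64, 46 and 87 counts). Of the IgG animals 3 lay close together above every antibody animal, and IgG animal 3 lay inside the antibody range, so the groups overlapped. The means were 1.61 ± 0.379 CPM with the antibody and 2.65 ± 0.661 CPM with IgG, and the log2 fold change was -0.72 ± 0.28 (95% interval -1.34 to -0.093). With edgeR the unadjusted p was 0.0285 and the Benjamini-Hochberg adjusted p was 0.9997. Over 17 alternatives the log2 fold change ran from -0.88 to -0.57, and the unadjusted p was under 0.05 in 9 of them.

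Lta, the soluble lymphotoxin, was at the limit of detection. Antibody animals 1 to 4 had 0, 2, 0 and 4 counts, and IgG animals 1 to 4 had 8, 6, 1 and 8 counts. A floor of 3 counts corresponds to 0.101 to 0.146 CPM in these libraries, so antibody animal 4 and IgG animals 1, 2 and 4 were above it. Summed over animals there were 6 counts with the antibody and 23 with IgG, a ratio of 0.292 per scaled library total, with an exact Poisson 95% interval of 0.0974 to 0.739 that covers counting error only and not the spread between animals. A fit with no filter on low counts gave a log2 fold change of -1.73 ± 0.97 with an edgeR unadjusted p of 0.100 and an adjusted p of 0.997. The log2 ratio of Ltb to Lta, which at such counts depends on the prior count of 2, was 3.76 ± 0.64 with the antibody and 3.32 ± 0.40 with IgG (exact permutation test, two-sided, p = 0.371). As with Ltb, IgG animal 3 lay among the antibody animals and the other IgG animals above them.

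Lymphocyte markers were measured beside these lymphotoxin values. The 7 B and plasma cell markers, all of which passed the filter and all with fitted means lower in the antibody group, summed to 4.88 to 14.04 CPM in antibody lesions and 12.2 to 48.2 CPM in IgG lesions. The B cell surface gene Ms4a1 had 0.195, 0.280, 0.919 and 0.809 CPM in antibody animals 1 to 4 and 4.003, 1.29, 0.361 and 2.67 CPM in IgG animals 1 to 4. IgG animal 3, the lowest IgG animal for Ltb and Lta, was the lowest IgG animal for Ms4a1, but the summed B and plasma cell level was lowest in IgG animal 2 (12.2 CPM, against 22.3 CPM in IgG animal 3). The plasma cell gene Jchain had 2.12 CPM in IgG animal 2 and 16.9 CPM in IgG animal 3. Jchain and Mzb1, another of these markers, were lowest among IgG animals in animal 2. The other B and plasma cell markers were lowest among IgG animals in animal 3. The 8 T cell markers, all with lower fitted means, summed to 16.6 to 48.2 CPM with the antibody and 26.6 to 57.6 CPM with IgG. The highest sums were in antibody animal 2 and IgG animal 1, the libraries with the highest thymocyte sums. In the other libraries they were 16.6 to 25.7 CPM with the antibody and 26.6 to 34.7 CPM with IgG. The part of thymocyte signal in these sums was not tested. The sum was again lowest among IgG animals in animal 2 (26.6 CPM, against 33.7 CPM in animal 3). Cd4 had 3.27 CPM in IgG animal 2 and 24.0 CPM in IgG animal 3. The other T cell markers were lowest among IgG animals in animal 3. Cd3e, a chain of the T cell receptor complex, had a log2 fold change of -0.53 ± 0.48. No T cell marker was at 0 in any library, while the B cell marker Pax5 was at 0 in some. The part of lymphocyte content in the Ltb and Lta values was not tested.

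**Figure D2:**
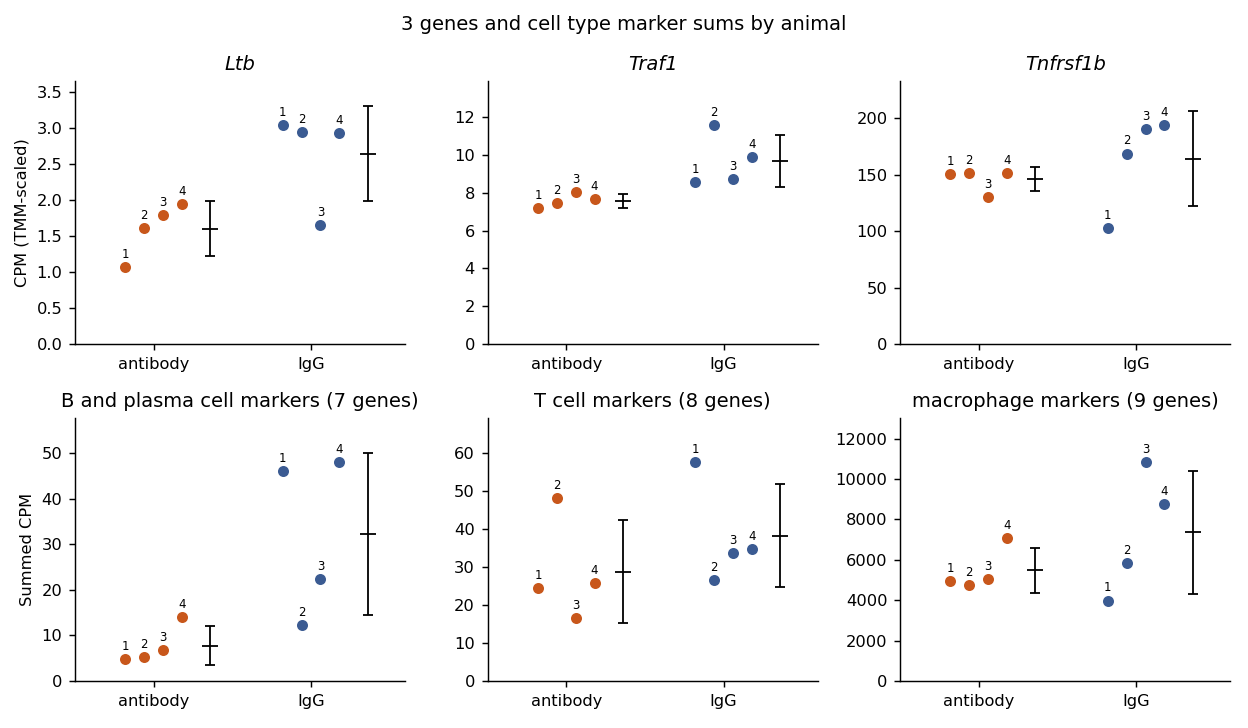
Ltb, Traf1 and Tnfrsf1b in CPM (top) and the summed CPM of B and plasma cell, T cell and macrophage markers (bottom) in every animal, with antibody animals in orange to the left of IgG animals in blue. Bars are the mean and SD of 4 animals. IgG animal 1 has the lowest Tnfrsf1b (103 CPM) and the lowest macrophage sum (3982 CPM).

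The 3 receptors had log2 fold changes between -0.17 and -0.046, and in each the IgG animals spanned the antibody animals. Tnfrsf1a (chromosome 6, 125299741 to 125312501, plus strand), the receptor with the death domain, had 109 to 121 CPM in antibody animals. In IgG animals 1 to 4 it had 99.5, 137, 134 and 134 CPM, so that 3 IgG animals stood above and 1 below the whole antibody group. Its log2 fold change was -0.12 ± 0.12 (95% interval -0.40 to 0.15, edgeR unadjusted p = 0.334), from means of 116 ± 5.50 CPM with the antibody and 126 ± 17.9 CPM with IgG, and it was -0.22 without IgG animal 1.

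Tnfrsf1b (chromosome 4, 144802271 to 144836773, minus strand), the receptor of leukocytes and endothelium, showed the same arrangement. It had 151, 151, 130 and 151 CPM in antibody animals 1 to 4 and 103, 169, 190 and 194 CPM in IgG animals 1 to 4. IgG animal 1 lay below every antibody animal and the other IgG animals above them. The log2 fold change was -0.17 ± 0.19 (95% interval -0.59 to 0.25, edgeR unadjusted p = 0.390). Without IgG animal 1, it was -0.33, with an edgeR unadjusted p of 0.0172 and a Benjamini-Hochberg adjusted p of 0.511, and 1517 genes of the whole table then stood at an unadjusted p under 0.05. It was -0.091 without IgG animal 3 (edgeR unadjusted p = 0.663) and -0.079 without IgG animal 4 (edgeR unadjusted p = 0.709). In IgG animals 1 to 4 the macrophage markers summed to 3982, 5846, 10863 and 8767 CPM. IgG animal 1, the lowest in Tnfrsf1b, also had the lowest macrophage sum and the lowest endothelial sum (1388 CPM, against 1395 CPM in antibody animal 3). Not every single marker was lowest there: Csf1r, Adgre1 and Cd14 lay inside the antibody range. The same animal had the highest thymocyte and epithelial sums. In antibody animals 1 to 4 the macrophage markers summed to 4971, 4744, 5067 and 7094 CPM. There animal 2 had the lowest sum and animal 3 the lowest Tnfrsf1b. The part of macrophage or endothelial content in Tnfrsf1b was not tested.

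Ltbr (chromosome 6, 125256589 to 125263888, minus strand), the lymphotoxin receptor of stromal and myeloid cells, lies 35852 bases from Tnfrsf1a with 1 gene, Scnn1a, between them. It had 43.2 to 47.9 CPM in antibody animals and 38.1 to 55.5 CPM in IgG animals, with all antibody values inside the IgG range. The log2 fold change was -0.046 ± 0.12 (95% interval -0.32 to 0.23), the smallest of the 9, and it was -0.13 without IgG animal 1 and 0.041 without IgG animal 3. Within each library, the log2 ratio of Tnfrsf1b to Tnfrsf1a was 0.33 ± 0.070 with the antibody and 0.35 ± 0.22 with IgG (exact permutation test, two-sided, p = 0.943). The log2 ratio of Ltbr to Tnfrsf1a was -1.34 ± 0.030 with the antibody and -1.42 ± 0.11 with IgG (exact permutation p = 0.257). A within-library ratio does not depend on the scaling between libraries, and neither ratio differed beyond its spread.

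Traf1 (chromosome 2, 34798778 to 34817292, minus strand) encodes an adaptor that joins TRAF2 at TNFR2 and is itself induced by NF-κB. It was the one gene of the 10 whose groups did not overlap, with 7.18, 7.43, 8.05 and 7.65 CPM in antibody animals 1 to 4 and 8.55, 11.6, 8.73 and 9.85 CPM in IgG animals 1 to 4. The gap between the groups was narrow, since antibody animal 3 and IgG animal 1 were neighbours. Groups without overlap were found for 1.96% of the genes tested, and with the antibody lower for 1.25%. The log2 fold change was -0.35 ± 0.14 (95% interval -0.67 to -0.035), with an edgeR unadjusted p of 0.0332 and a Benjamini-Hochberg adjusted p of 0.9997. The means were 7.58 ± 0.371 CPM with the antibody and 9.68 ± 1.39 CPM with IgG. Over the same 17 alternatives the log2 fold change ran from -0.41 to -0.26, with an unadjusted p under 0.05 in 9. Without IgG animal 2 it was -0.26, with an edgeR unadjusted p of 0.0760. The B and plasma cell and macrophage sums are given above, and their part in Traf1 was not tested.

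Traf2 (chromosome 2, 25373502 to 25402460, minus strand), the ubiquitously used adaptor that brings the ligases Birc2 and Birc3 to the receptors, had 25.7 to 29.3 CPM in antibody animals and 26.9 to 35.8 CPM in IgG animals. The groups overlapped, and IgG animal 2 was the highest. The log2 fold change was -0.15 ± 0.11 (95% interval -0.41 to 0.10), and -0.065 without IgG animal 2. The log2 ratio of Traf1 to Traf2 was -1.85 ± 0.13 with the antibody and -1.65 ± 0.15 with IgG, a difference of -0.20 that did not pass (exact permutation test, two-sided, p = 0.114, and 0.571 when adjusted over 5 ratios).

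Ripk1 (chromosome 13, 34094743 to 34127039, plus strand), the kinase and scaffold at TNFR1, had 53.8, 64.6, 54.3 and 67.1 CPM in antibody animals 1 to 4. It had 48.7, 63.1, 80.4 and 79.4 CPM in IgG animals 1 to 4. IgG animals 3 and 4 were above every antibody animal and IgG animal 1 below, as for Tnfrsf1b, and the log2 fold change was -0.18 ± 0.17 (95% interval -0.56 to 0.20, edgeR unadjusted p = 0.310). Without IgG animal 1 the log2 fold change was -0.30 (edgeR unadjusted p = 0.0486, Benjamini-Hochberg adjusted p = 0.522). It was -0.089 without IgG animal 3 and -0.096 without IgG animal 4 (edgeR unadjusted p = 0.622 and 0.609).

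Ripk3 (chromosome 14, 56403832 to 56407694, minus strand), the kinase that phosphorylates MLKL in necroptosis, had 5.99 to 8.38 CPM in antibody animals and 6.36 to 10.01 CPM in IgG animals. IgG animals 2 and 3 stood above all antibody animals, and the other IgG animals did not. The log2 fold change was -0.27 ± 0.19 (95% interval -0.69 to 0.14, edgeR unadjusted p = 0.174). The log2 ratio of Ripk3 to Ripk1 was -3.06 ± 0.25 with the antibody and -2.96 ± 0.25 with IgG (exact permutation test, two-sided, p = 0.600). Mlkl, the effector of necroptosis, had 13.2 ± 1.10 CPM with the antibody and 14.4 ± 2.78 CPM with IgG.

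Values of the fitted genes were more scattered among IgG animals than among antibody animals. The coefficient of variation was larger in IgG lesions for 9 of the 9 genes fitted, and for 66.5% of all genes. For Tnf it was 17.8% in antibody lesions and 40.1% in IgG lesions, and for Ltb 23.6% and 25.0%. Lta, which was not fitted, went the other way, with 132% in antibody lesions and 55.5% in IgG lesions. Leaving 1 animal out gave 7 to 9 of 9, and 51.2% to 71.9% of all genes. Whether the spread itself differed between the groups was not tested.

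**Figure D3:**
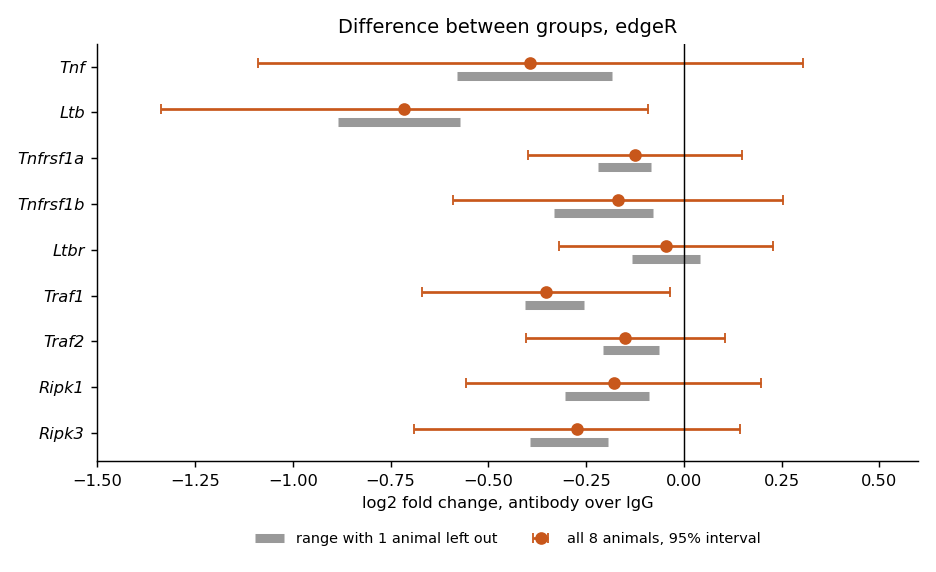
Log2 fold change of antibody over IgG for the 9 genes fitted, from edgeR; points and thin lines are the estimate and its 95% interval over 8 animals, and grey bars the range of estimates with 1 animal left out. The intervals of Ltb and Traf1 lie below 0, none of the 9 passed after adjustment, and the range of Ltbr crosses 0.

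Levels of the 10 genes were ordered per kilobase of exon (RPKM, from the TMM-scaled CPM and the deposited exon length), pooled over the 8 lesions. Tnfrsf1a was highest at 56.2 ± 6.24 RPKM, followed by Tnfrsf1b at 31.6 ± 6.11 RPKM and Ltbr at 22.2 ± 2.35 RPKM (SD, n = 8). The kinase Ripk1 had 14.2 ± 2.59 RPKM and the adaptor Traf2 9.45 ± 1.02 RPKM. Ripk3 and Traf1 followed at 4.003 ± 0.776 and 3.71 ± 0.630 RPKM, and their order held in 5 of 8 animals. The ligands were lowest, Ltb with 1.94 ± 0.683 RPKM, Tnf with 1.51 ± 0.523 RPKM and Lta with 0.0984 ± 0.0901 RPKM. Ltb was above Tnf in 7 of 8 animals, and every other neighbouring pair kept its order in 8 of 8 animals. The ranges over animals nevertheless overlapped between Tnfrsf1b and Ltbr, between Ripk1 and Traf2, between Ripk3 and Traf1 and between Ltb and Tnf.

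**Figure D4:**
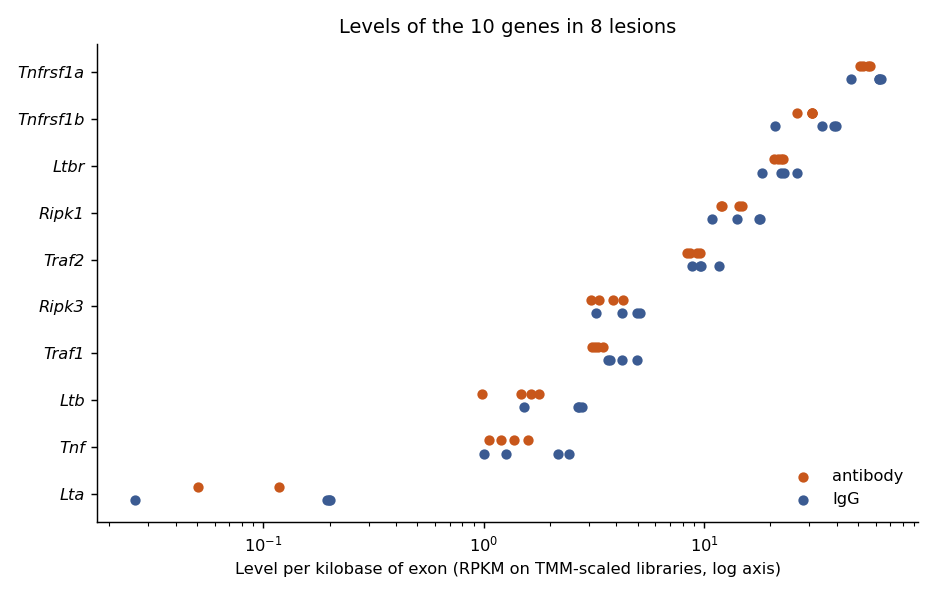
Level of the 10 genes in each lesion per kilobase of exon (RPKM, log axis), with antibody animals in orange above IgG animals in blue. The 2 antibody animals with no Lta count are not drawn; the 3 receptors are at the top and the 3 ligands at the bottom.

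Over the 8 libraries the receptors and Ripk1 followed similar patterns, and Ltb a different one. Pearson's r of log2 CPM, given as a description over libraries that differ in depth and in cell content, was 0.944 between Tnfrsf1a and Tnfrsf1b, 0.900 between Tnfrsf1b and Ripk1 and 0.845 between Tnfrsf1a and Ltbr. Between Tnf and Ltb it was 0.480, between Ltb and Ltbr -0.316, and between Ltb and Tnfrsf1b -0.091. Traf1 stood nearer to the ligands, with 0.770 to Ltb and 0.696 to Tnf, against 0.359 to Tnfrsf1b and 0.558 to Tnfrsf1a. Among 14642 genes with a mean of at least 1 CPM, the pattern most like that of Ltb belonged to Ubash3a (r = 0.938), which dampens T cell receptor signalling, and Gimap4 (r = 0.930), a lymphocyte GTPase gene. Tnfrsf1b was matched most closely by Bcl2l11 (r = 0.993), which encodes the pro-apoptotic protein BIM, and Prokr1 (r = 0.987), a prokineticin receptor gene. For Tnfrsf1a they were Ptpn1 (r = 0.983) and Psd4 (r = 0.983), for Ltbr St6galnac4 (r = 0.986) and Mmrn2 (r = 0.982), and for Tnf Cep89 (r = 0.977) and Phf8 (r = 0.973). The closest to Traf1 were the transcripts 4933407K13Rik (r = 0.980) and F730043M19Rik (r = 0.975), to Traf2 AA415398 (r = 0.944) and Sncaip (r = 0.942), to Ripk1 Tmem185b (r = 0.980) and Rpl29 (r = 0.978), and to Ripk3 Ccdc12 (r = 0.978) and Sec14l1 (r = 0.961). A best match picked from so many candidates over 8 libraries is high by construction.

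The wider pathway was described with 138 other genes in 8 lists, of which 126 passed the filter. Of these, 106 (84.1%) had a log2 fold change below 0 and 20 above, with a median of -0.14, against 52.3% below 0 and a median of -0.0096 over all genes. With edgeR and Benjamini-Hochberg adjustment 0 of 126 passed, and 6 had an unadjusted p under 0.05, each lower with the antibody. Of all genes, 3.19% were at that level and 2.06% were so and lower. The pathway lists were chosen with earlier results of these data known, so these shares are only a description. Without IgG animal 3, 83 of 125 were below 0, against 49.2% of all genes, and with total-count scaling 94 of 126, against 46.2%. At an unadjusted p under 0.05 there were 20 of these genes without IgG animal 1 and 1 without IgG animal 4. The 9 macrophage markers all had fitted means lower with the antibody too, each in groups that overlapped. Csf1r, the receptor for colony-stimulating factor, had the smallest p of them (log2 fold change -0.38, edgeR unadjusted p = 0.0265). The other macrophage markers had edgeR unadjusted p values of 0.0714 to 0.532. The macrophage marker sum was lowest in IgG animal 1 and highest in IgG animal 3, and its part in these counts was not tested.

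**Figure D5:**
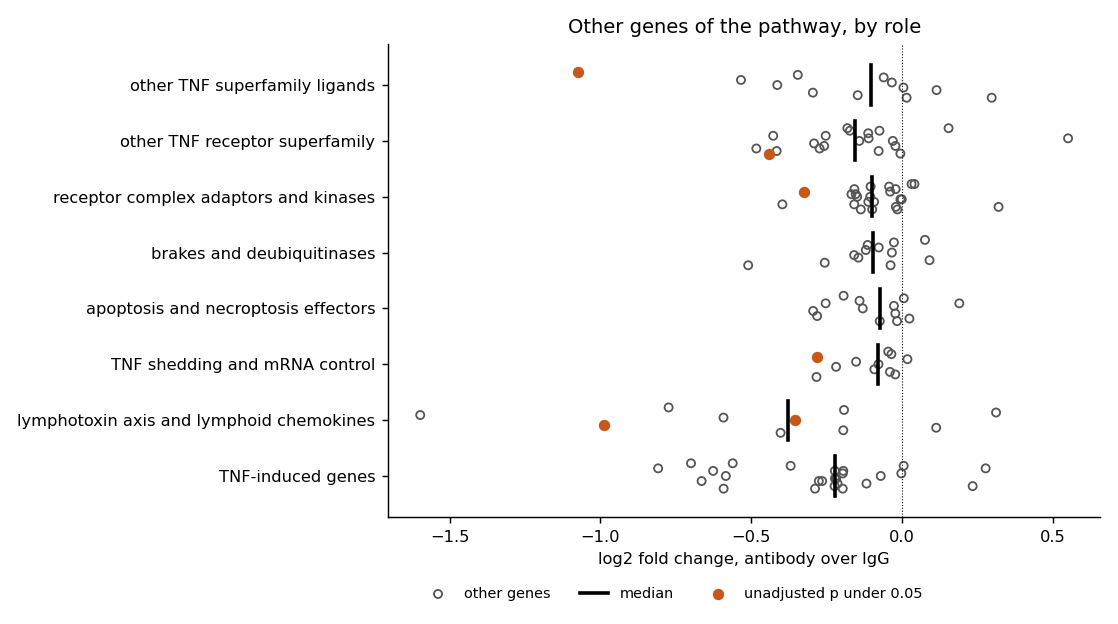
Log2 fold change of antibody over IgG (edgeR) for the 126 other pathway genes that passed the filter, by role. Each circle is a gene, filled where its unadjusted p was under 0.05, and the bar is the median of the list. Every median lies below 0, no gene passed after adjustment, and the lists were chosen with earlier results of these data known.

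Among the other ligands of the TNF superfamily, 8 of 12 had a log2 fold change below 0 (median -0.10), and Tnfsf4, Cd40lg and Cd70 had too few counts. Tnfsf11, which encodes the osteoclast factor RANKL, had 0.534 ± 0.209 CPM with the antibody and 1.14 ± 0.264 CPM with IgG (log2 fold change -1.07 ± 0.36, edgeR unadjusted p = 0.0146). Eda, the ectodysplasin ligand, had 0.30 ± 0.19 and Tnfsf13, the B and plasma cell factor APRIL, -0.30 ± 0.22 on the log2 scale. Of the other receptors, 18 of 20 were below 0 (median -0.16). Tnfrsf14, which binds LIGHT and lymphotoxin-α, had a log2 fold change of -0.44 ± 0.19 (edgeR unadjusted p = 0.0486), Cd40, the costimulatory receptor, -0.43 ± 0.20, and Tnfrsf25, a death receptor of T cells, -0.48 ± 0.32. Without IgG animal 2 these were -0.25 for Tnfrsf14, -0.28 for Cd40 and -0.16 for Tnfrsf25, and Eda was 0.19 without IgG animal 3.

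In the receptor complex, 20 of 23 adaptors and kinases were below 0 (median -0.10). Birc3, a ubiquitin ligase recruited by TRAF2 and induced by NF-κB, had 31.8 ± 3.02 CPM with the antibody and 39.9 ± 4.12 CPM with IgG, in groups that did not overlap. Its log2 fold change was -0.33 ± 0.12 (edgeR unadjusted p = 0.0199), beside -0.40 ± 0.24 for the kinase gene Ikbke and -0.15 ± 0.091 for Traf3, which holds the non-canonical route in check. Besides Birc3, no gene of the pathway lists had groups without overlap. Such groups were found for 1.96% of all genes, and with the antibody lower for 1.25%. Ikbke had 58.0 CPM in IgG animal 2 and at most 39.4 CPM in the other IgG animals, and without that animal its log2 fold change was -0.13. Among the brakes on NF-κB and deubiquitinases, 10 of 12 were below 0 (median -0.096). Tnip3 had -0.51 ± 0.25, Tnfaip3, which encodes the ubiquitin-editing enzyme A20, -0.26 ± 0.16, and its partner Tnip2 -0.16 ± 0.13. Tnip2 was -0.035 without IgG animal 2, and Tnfaip3 -0.39 without IgG animal 1. Of the death effectors, 10 of 13 were below 0 (median -0.075), with log2 fold changes of -0.28 ± 0.13 for Casp8, the caspase that holds necroptosis off, and -0.25 ± 0.16 for the pore-former Bax (-0.16 without IgG animal 3). Cflar, which encodes the caspase-8 regulator FLIP, had 175 ± 12.997 CPM with the antibody and 174 ± 24.4 CPM with IgG.

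Genes that shed TNF or control its mRNA were below 0 in 10 of 11 cases (median -0.079). Zfp36, which encodes the protein tristetraprolin that destabilises Tnf mRNA, had a log2 fold change of -0.28 ± 0.12 (edgeR unadjusted p = 0.0363), its relative Zfp36l1 had -0.22 ± 0.10 and the sheddase gene Adam17 -0.28 ± 0.14 (-0.19 without IgG animal 4). The lymphotoxin axis had the lowest list median, -0.38, with 8 of 10 genes below 0 and Ccl19, Ccl21a and Madcam1 not kept by the filter. Nfkb2, the non-canonical NF-κB subunit downstream of LTBR, had 42.2 ± 1.02 CPM with the antibody and 54.0 ± 10.5 CPM with IgG (log2 fold change -0.36 ± 0.14, edgeR unadjusted p = 0.0295). Cxcl13, the B cell attracting chemokine of lymphoid stroma, had 2.54, 2.03, 3.15 and 2.39 CPM in antibody animals 1 to 4 and 4.45, 2.12, 3.32 and 10.1 CPM in IgG animals 1 to 4 (log2 fold change -0.99 ± 0.43, edgeR unadjusted p = 0.0469). Its mean in the IgG group rested largely on animal 4, without which the log2 fold change was -0.39. Chst4, a sulfotransferase of high endothelial venules, had 0.255 ± 0.331 CPM with the antibody and 0.818 ± 0.484 CPM with IgG. It was at 0 CPM in antibody animal 4, and its log2 fold change was -1.60 ± 0.81. Over 16 alternatives that fitted Chst4 this ran from -3.12 to -1.11, with an unadjusted p under 0.05 in 2. The lowest was without antibody animal 2 (edgeR unadjusted p = 0.00485, Benjamini-Hochberg adjusted p = 0.973). The part of the B cell markers, whose values stand beside Ltb above, was not tested for this list either.

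Of the genes known to be induced by TNF, 22 of 25 were below 0 (median -0.22), with Csf2 not kept. Ccl5, a chemokine gene of T cells and macrophages, had a log2 fold change of -0.66 ± 0.31, the inhibitor gene Nfkbie -0.37 ± 0.18 and the subunit gene Nfkb1 -0.21 ± 0.11. None of these had an edgeR unadjusted p under 0.05, and these 3 genes had the smallest p of their list.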

How the data were processed

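The deposited table holds raw read counts per gene symbol for 8 libraries, which the authors made, per the file headers, with featureCounts 1.4.6-p4 over exons of the UCSC mm9 annotation, with no option for strand, read pairs or multiple alignments. CASAVA, STAR 3.0, Subread and DESeq2 are also listed in the submitters' processing notes. Reads placed at several sites or over several genes were left out of the deposited counts, and antisense reads could not be told apart.

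The genes and the lists were chosen with earlier results of these data known. Counts were filtered with filterByExpr (minimum count 10, minimum total 15), scaled by TMM and fitted with edgeR 4.0.16 (R 4.3.3; quasi-likelihood F-test, robust, no covariate) over 15980 genes, with Benjamini-Hochberg adjustment. SE was derived from the F statistic. Named genes were the 10 genes, the 3 of each list with the smallest unadjusted p, and the 2 closest in pattern to each fitted gene (log2 CPM, prior count 2); others are named as pathway or marker genes, after their values were seen, and some genes that the rule names are not reported here. Ratios were tested over 70 assignments, where the smallest p is 0.0286. DESeq2 1.42.0 and limma-voom (3.58.1), other scalings, no filter, a replicate block and leaving animals out were alternatives. Upstream sequences come from RefSeq GRCm38.p6 and the counts from mm9; no coordinate was converted. Intervals on counts cover counting error only.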

Additional observations from a re-analysis of the deposited data

Results flagged for a closer look

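Of 76 groups of 4 animals examined, 7 had an animal that stood apart from the other animals of its group by Dixon's criterion at its 95% level, where chance gives about 1 in 20. In antibody animal 3, Tnfrsf1b was 130 CPM, against 151 CPM in each of the others. In antibody animal 4, Zfp36 was 31.2 CPM (others 24.0 to 25.2 CPM) and Nfkb1 95.2 CPM (others 85.4 to 86.8 CPM). In IgG animal 1, Tnfrsf1a was 99.5 CPM (others 134 to 137 CPM). IgG animal 3 held the other such values: Ltb at 1.66 CPM (others 2.94 to 3.04 CPM), Lta at 0.0361 CPM (others 0.270 to 0.277 CPM) and a log2 ratio of Ltb to Lta of 3.93 (others 3.09 to 3.15), which rests on a single Lta count. No explanation of these values was tested.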

How the results depend on the processing

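Across 17 alternatives none of the 9 genes passed adjustment (lowest edgeR adjusted p = 0.511), and 9 of 9 log2 fold changes stayed below 0 except without IgG animal 3 and without IgG animal 2 and antibody animal 3 together (8 of 9 each). Ltbr then was 0.041 and 0.0091 (-0.13 to 0.041 over the animals left out 1 at a time), and in the second case Tnip2 was 0.019. Genes past adjustment numbered 8 with DESeq2, 0 to 1 with 1 animal left out, and 1 without IgG animal 1 and antibody animal 2, the pair with the highest thymocyte sums, left out after seeing the data. Genes at an unadjusted p under 0.05 (509) numbered 310 to 1517 with 1 animal left out (1517 without IgG animal 1, 783 without antibody animal 2, 310 without IgG animal 4, 336 without antibody animal 3) and 1282 without that pair. Of the 9 genes, those at that level (2) numbered 0 to 3 with 1 animal left out, 0 without antibody animal 1 or 2 or IgG animal 2 or 4, and 0 without IgG animal 2 and antibody animal 3 together. Pathway genes (6) numbered 1 to 20 with 1 animal left out, 2 without IgG animal 2 and antibody animal 3, and 15 without the pair with thymocyte signal. Deviations of same-numbered animals had correlations of 0.293, -0.344, -0.127 and -0.0012, and those of differently numbered animals were -0.52 to 0.458. Such values over 4 animals per group cannot tell whether the numbers pair animals. With the replicate number as a block, 0 of the 9 genes and 3 pathway genes were at an unadjusted p under 0.05. The difference in the log2 ratio of Ripk3 to Ripk1 was -0.20 to 0.013 with 1 animal left out (0.0010 without IgG animal 2), and that of Tnfrsf1b to Tnfrsf1a -0.11 to 0.045 (0.012 without antibody animal 3, 0.036 without IgG animal 3). Chst4 could not be fitted in 1 alternative. The cause of these moves was not tested. Depth limits Lta, which had 3 counts or fewer in 4 libraries.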

Other observations

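The neighbours of the ligand genes on chromosome 17, within 50000 bases of Tnf, included myeloid genes. Lst1 (chromosome 17, 35322040 to 35325385), a leukocyte gene next to Ltb, had 3.75 ± 0.253 CPM in antibody lesions and 6.52 ± 0.918 CPM in IgG lesions (SD, n = 4 each), with a log2 fold change of -0.80 ± 0.16 (edgeR unadjusted p = 0.000738, Benjamini-Hochberg adjusted p = 0.9997) and groups that did not overlap. Of all genes tested, 1.96% had groups without overlap, and 1.25% had them with the antibody lower. Aif1, the macrophage gene that encodes IBA1, had a log2 fold change of -0.50 ± 0.23. Other genes of this window stood closer to 0, with -0.054 for Prrc2a, -0.13 for Nfkbil1, -0.036 for Ddx39b and 0.14 for Atp6v1g2.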
